A study of Mus musculus with 24 samples.

Results

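The 9 genes described here are known marks of neurons of the ventromedial hypothalamus (VMH) or of their glutamate phenotype and secreted products: Nr5a1, Fezf1, Nkx2-1, Slc17a6, Adcyap1, Tac1, Bdnf, Cbln1 and Nptx2. They were taken by symbol, as the rows of the deposited array table annotated with that symbol and no other. Each had 1 such row, so no choice between rows was needed, and the 9 genes are part of 30142 genes with a row of their own. All 9 passed the filter on low signal, and Bdnf lay closest to it. The VMH is a paired nucleus at the base of the hypothalamus whose mostly glutamatergic neurons act on energy expenditure, blood glucose and, through sympathetic nerves, brown fat. Nr5a1, also called SF-1, is the transcription factor that defines most of these neurons, and Adcyap1 encodes PACAP, a peptide they release together with glutamate.

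The study measured VMH tissue dissected from brain sections of 100 µm, and brown adipose tissue (BAT), with Affymetrix arrays hybridised to total RNA. The Gfap-Bmal1 cKO mice (here cKO) lack the clock gene Bmal1 in cells targeted through Gfap, which astrocytes express; they were set beside control mice, and both genotypes ate a standard diet (SD) or a high fat diet (HFD) for 16 weeks. The 4 VMH groups of 3 arrays each were used here, namely VMH control SD, VMH cKO SD, VMH control HFD and VMH cKO HFD. The sample titles call the controls WT and the cKO mice KO. The labels give no age, sex, strain, Cre line or floxed allele, nor, beyond WT, what the controls carried. Nor do they say whether replicate arrays stand for different animals; the p-values here rest on the variation among arrays, part or all of which may be technical. The question about these genes is whether transcripts of VMH neurons differ with diet, with the deletion in astrocytes, or with both.

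Because BMAL1 with its partner CLOCK binds the E-box CACGTG, the promoters of the members were searched for it, on both strands, in RefSeq windows of assembly GRCm38.p6 that run from 250 bases before to 50 bases after a gene's start. Of the 9 genes, 6 had a window, and they had 14 windows in all; Nr5a1, Cbln1 and Nptx2 were not among them. The E-box was found in 1 of the 14 windows, that of Tac1, with its first base at position -61 from the start, while 7.15% of all 32851 windows held it. The other motifs searched were the SF-1 sites TCAAGGTCA (0.423% of all windows) and TCAAGGCCA (0.591%) and the cAMP response element TGACGTCA (1.79%). None of these 3 motifs was found in a member's window, which says only that these letters were not there. The 130 bases before the start of Tac1 are shown as the stretch that holds the E-box, in capitals, and those of Slc17a6 as a stretch of the same length without one. The Tac1 stretch is at chr6:7554931-7555060 on the plus strand and that of Slc17a6 at chr7:51621700-51621829 on the plus strand.
Tac1: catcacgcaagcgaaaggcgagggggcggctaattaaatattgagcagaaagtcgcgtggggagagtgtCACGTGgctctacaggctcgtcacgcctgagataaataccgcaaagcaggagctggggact
Slc17a6: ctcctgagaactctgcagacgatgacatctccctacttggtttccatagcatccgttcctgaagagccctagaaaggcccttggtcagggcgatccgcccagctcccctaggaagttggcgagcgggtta

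The deposited values are log2 signals, with array medians from 5.37 to 5.47 in VMH. Correlations between VMH arrays over all rows lay between 0.992 and 0.996. The transcripts of Nr5a1, Fezf1 and Slc17a6 were well above these medians on all 12 VMH arrays, at 7.53 to 8.47, 14.56 to 15.60 and 15.36 to 15.96. The arrays labelled VMH also held transcripts of other hypothalamic nuclei. The 11 tested genes of those nuclei averaged 8.53 to 9.60 per array, with group means from 5.10 for Npvf to 15.82 for Pmch. These values thus do not show how closely the dissection kept to the VMH. In BAT every member lay lower than on any VMH array: Nr5a1 at 3.75 to 3.93, Slc17a6 at 3.24 to 3.49 and Adcyap1 at 3.21 to 3.63, with BAT array medians of 4.01 to 4.09. Not all members lay below these BAT medians: Nkx2-1 was at 4.12 to 4.52 and Cbln1 at 4.14 to 4.37. Nptx2, at 4.01 to 4.24, overlapped them. The array medians were also lower in BAT than in VMH, so signals of the 2 tissues are not directly comparable. One array stood apart, VMH cKO HFD replicate 2, where the pituitary hormone genes Prl and Gh read 17.37 and 13.74, against 4.11 to 4.58 and 4.80 to 5.47 on the other 11. The deleted gene Bmal1, listed as Arntl, averaged 8.62 ± 0.16 (SD, n = 3) in VMH control SD, 9.17 ± 0.21 in cKO SD, 8.95 ± 0.23 in control HFD and 9.19 ± 0.30 in cKO HFD. It was thus not lower on the arrays labelled cKO. Which of its probes lie in the deleted part is not given in the sources used here, so these values do not check the genotype labels. In tissue of mixed cells, fewer cells of a type and less RNA per cell cannot be told apart.

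On HFD, averaged over genotypes, 8 of the 9 were higher than on SD, with a median log2 difference of 0.30, where the median of all 16738 genes tested was 0.02 and 59.6% of them were higher. Adcyap1 had the widest difference, 0.67 ± 0.13 (SE) on the log2 scale or 1.59-fold, and it was the 1 member whose 6 HFD arrays all lay above its 6 SD arrays. No member passed the threshold of an adjusted p of 0.05 in limma with Benjamini-Hochberg adjustment, in a comparison in which 0.0119% of all genes did (2 genes). At an unadjusted p under 0.05, 6 members were higher on HFD, namely Adcyap1, Slc17a6, Nptx2, Fezf1, Nkx2-1 and Nr5a1, against 9.83% of all genes. With the mean of the GABA neuron genes as a covariate, 2 of these 6 were left (Adcyap1 and Slc17a6), and 4 without both HFD arrays numbered 2 (Fezf1, Adcyap1, Slc17a6 and Nptx2). Cbln1 was not among the 6, and Tac1 and Bdnf were close to 0. The members were chosen with earlier results of these data known, and some varied together. The counts above are thus no test of the 9 as a set.

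**Figure D1:**
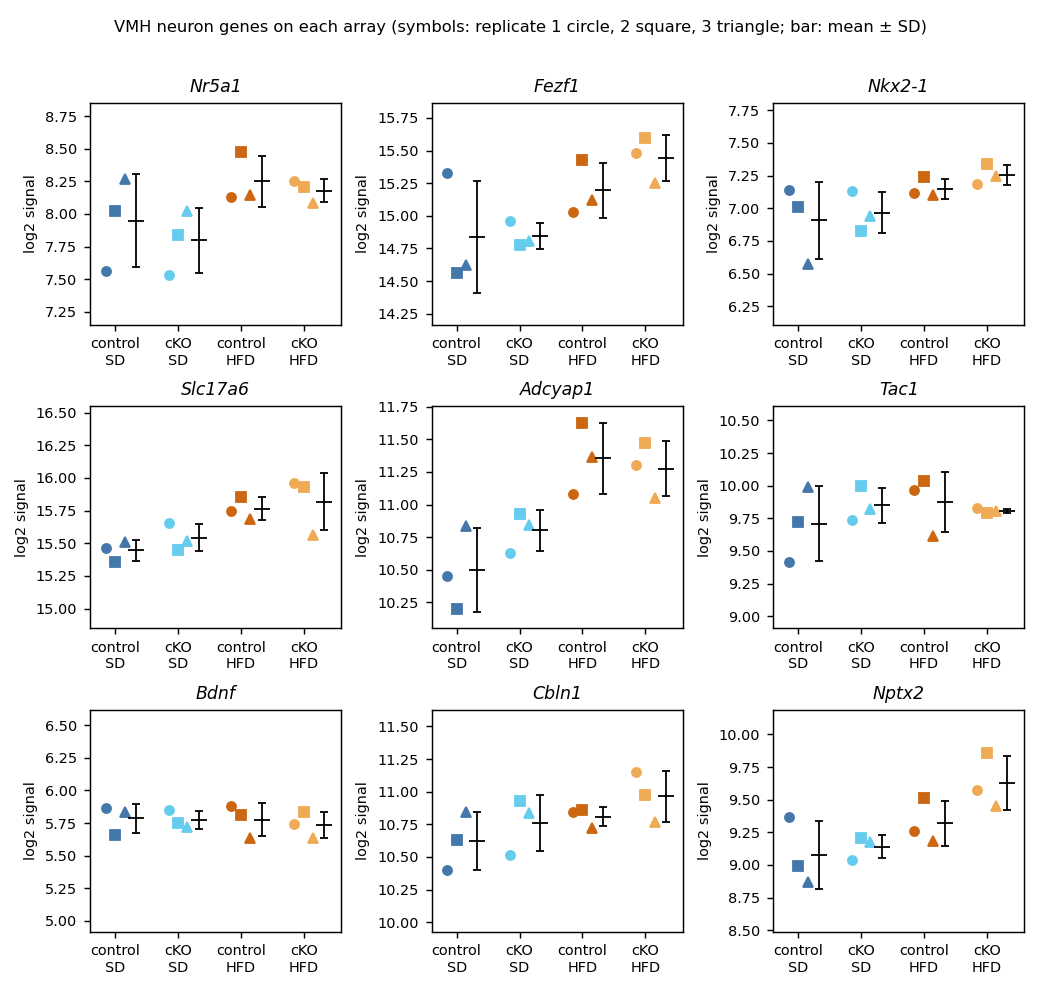
Log2 signal of the 9 VMH neuron genes (vertical axis, with the same span in every panel) on the 12 VMH arrays, by genotype and diet; symbols mark replicates 1 to 3 and the black bar is the group mean with its SD (n = 3). For Adcyap1 the 6 HFD arrays sit at 11.05 to 11.63, above the 6 SD arrays at 10.20 to 10.93, whereas Tac1 and Bdnf overlap in all 4 groups.

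Among the transcription factors, Nr5a1 read 7.56, 8.02 and 8.26 in control SD, 7.53, 7.84 and 8.03 in cKO SD, 8.13, 8.47 and 8.14 in control HFD, and 8.25, 8.20 and 8.08 in cKO HFD. The HFD arrays lay above the SD arrays in cKO mice, while in controls the highest SD array lay above 2 of the 3 HFD arrays. Averaged over genotypes the difference was 0.34 ± 0.12 (SE; 95% interval 0.066 to 0.614), with an adjusted p of 0.313 (limma) and p = 0.03 in an exact two-sided permutation test that exchanged arrays between diets within a genotype. That test has 400 arrangements and cannot give a p below 0.005; 18 such tests were run, 2 for each gene, and their p-values are not adjusted.

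Fezf1, a zinc finger factor needed for the formation of the VMH, read 15.33, 14.56 and 14.62 in control SD, 14.96, 14.78 and 14.81 in cKO SD, 15.03, 15.43 and 15.12 in control HFD, and 15.48, 15.60 and 15.25 in cKO HFD. Control SD replicate 1 was the highest SD array and lay within the HFD range. The difference was 0.48 ± 0.13 (95% interval 0.185 to 0.767; adjusted p 0.226, limma; exact permutation p 0.02). Nkx2-1, a homeobox factor of the ventral hypothalamus, read 7.14, 7.01 and 6.58 in control SD, 7.13, 6.82 and 6.94 in cKO SD, 7.11, 7.24 and 7.10 in control HFD, and 7.18, 7.34 and 7.25 in cKO HFD. Its SD arrays spread over a wider range than its HFD arrays, and the difference was 0.27 ± 0.09 (95% interval 0.062 to 0.469; adjusted p 0.295, limma; exact permutation p 0.015).

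Slc17a6 encodes VGLUT2, the transporter that loads glutamate into the synaptic vesicles of hypothalamic neurons. It read 15.47, 15.36 and 15.51 in control SD, 15.65, 15.45 and 15.52 in cKO SD, 15.75, 15.86 and 15.68 in control HFD, and 15.96, 15.93 and 15.57 in cKO HFD. The control arrays separated by diet, and in cKO mice HFD replicate 3 fell among the SD arrays. The difference averaged over genotypes was 0.30 ± 0.07 (95% interval 0.135 to 0.461; adjusted p 0.196, limma; exact permutation p 0.01), which is 1.23-fold.

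Of the neuropeptide genes, Adcyap1 read 10.45, 10.20 and 10.84 in control SD, 10.63, 10.93 and 10.84 in cKO SD, 11.08, 11.63 and 11.36 in control HFD, and 11.31, 11.47 and 11.05 in cKO HFD. The lowest HFD array, at 11.05, lay above the highest SD array, at 10.93, and 0.705% of all genes tested had all 6 HFD arrays above all 6 SD arrays. In BAT, where the Adcyap1 signal lay below the array medians, the 6 HFD arrays (3.34 to 3.63) lay above the 6 SD arrays (3.21 to 3.31). The share of all genes that did so in BAT was not counted, so nothing is drawn from it for VMH. The difference of 0.67 in VMH had a 95% interval of 0.387 to 0.946 and an unadjusted p of 0.000285 in limma. Its adjusted p was 0.126, and the exact permutation p was 0.005, the smallest that test can give. On leaving out 1 array at a time the difference stayed between 0.59 and 0.75, and the adjusted p ranged from 0.0524 with array weights to 0.486 with the GABA neuron covariate over the alternatives tried.

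Tac1, which encodes substance P and neurokinin A, read 9.41, 9.72 and 9.99 in control SD, 9.74, 10.00 and 9.82 in cKO SD, 9.97, 10.04 and 9.61 in control HFD, and 9.83, 9.79 and 9.80 in cKO HFD. The 4 groups overlapped, and the diet difference was 0.06 ± 0.10 (95% interval -0.166 to 0.286; adjusted p 0.854, limma; exact permutation p 0.61). The 2 neuropeptide genes thus gave different values, though the difference between the genes was not tested.

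The secreted proteins were split as well. Nptx2, a pentraxin that gathers AMPA-type glutamate receptors at excitatory synapses, read 9.37, 8.99 and 8.87 in control SD, 9.04, 9.20 and 9.18 in cKO SD, 9.26, 9.51 and 9.18 in control HFD, and 9.57, 9.86 and 9.45 in cKO HFD. The cKO arrays separated by diet and the control arrays did not; the difference averaged over genotypes was 0.37 ± 0.10 (95% interval 0.144 to 0.588; adjusted p 0.224, limma; exact permutation p 0.015).

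Cbln1, a synapse organiser that bridges neurexins and delta glutamate receptors, read 10.40, 10.63 and 10.85 in control SD, 10.52, 10.93 and 10.83 in cKO SD, 10.84, 10.86 and 10.72 in control HFD, and 11.15, 10.98 and 10.76 in cKO HFD. Diets overlapped in both genotypes, and the difference of 0.19 ± 0.10 had an interval that held 0 (-0.022 to 0.411; adjusted p 0.451, limma; exact permutation p 0.095). Bdnf, a neurotrophin whose deletion from the VMH is known to cause overeating, lay between 5.63 and 5.88 on all 12 arrays, close to the filter level of 5.39. Its difference was -0.02 ± 0.06 (95% interval -0.156 to 0.110; adjusted p 0.913, limma; exact permutation p 0.67). At a signal this low a change of the transcript may show only in part, so the interval sets no limit on such a change.

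Within one genotype, the diet differences were less precise. In controls Adcyap1 was higher on HFD by 0.86 ± 0.18 (SE; 95% interval 0.463 to 1.254; adjusted p 0.343, limma) and Slc17a6 by 0.32 ± 0.10 (adjusted p 0.492). The HFD arrays of these 2 genes all lay above the SD arrays, as did those of 8.50% of all genes. They were also the 2 members higher at an unadjusted p under 0.05, against 6.23% of all genes. In cKO mice Fezf1 was higher by 0.60 ± 0.19 (adjusted p 0.350), Nptx2 by 0.49 ± 0.14 (adjusted p 0.314) and Adcyap1 by 0.47 ± 0.18 (95% interval 0.079 to 0.870; adjusted p 0.441, limma). Here 5 members had all HFD arrays above all SD arrays, namely Nr5a1, Fezf1, Adcyap1, Nkx2-1 and Nptx2, against 11.8% of all genes. Also 5 were higher at an unadjusted p under 0.05 (Fezf1, Adcyap1, Nkx2-1, Slc17a6 and Nptx2), against 7.28% of all genes. These counts within a genotype are likewise no test of the members as a set. No member passed the adjusted threshold in either genotype, where 0% and 0.00597% of all genes did, which is 0 genes in controls (1403 at an unadjusted p under 0.05) and 1 in cKO mice.

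**Figure D2:**
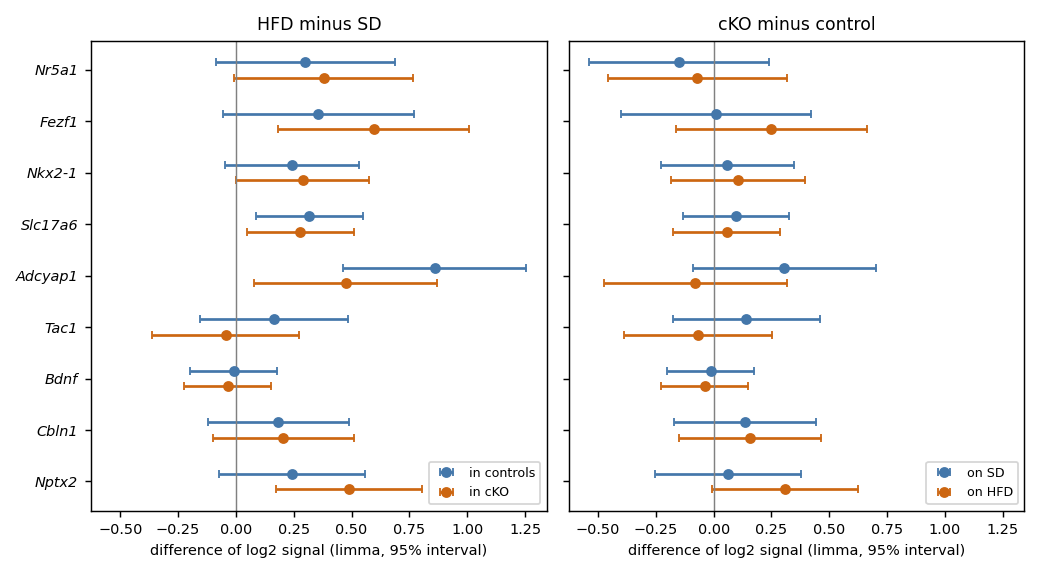
Differences of log2 signal for the 9 genes with 95% intervals from limma; left, HFD minus SD in controls and in cKO mice; right, cKO minus control on SD and on HFD. The Adcyap1 interval in controls runs from 0.463 to 1.254, and every interval in the right panel includes 0.

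The diet difference of no member was shown to depend on genotype. The interaction, meaning the HFD minus SD difference in cKO mice less that in controls, was -0.38 ± 0.25 for Adcyap1 (95% interval -0.944 to 0.175; adjusted p 0.891, limma). It was 0.25 ± 0.20 for Nptx2, 0.24 ± 0.26 for Fezf1 and -0.21 ± 0.20 for Tac1, and lay within 0.08 of 0 for the other 5. By this test 0% of all genes passed (944 at an unadjusted p under 0.05). The 95% intervals of all 9 members included 0.

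By genotype, averaged over diets, 7 members were higher and 2 lower on the arrays labelled cKO, with a median of 0.08 against 0.02 over all genes, of which 60.5% were higher. None passed the threshold that 0.615% of all genes passed, nor an unadjusted p under 0.05 (limma), which 11.2% of all genes did. The widest was Nptx2 at 0.19 ± 0.10 (SE; adjusted p 0.523, limma; exact permutation p 0.14), followed by Cbln1 at 0.15, while Nr5a1 was at -0.11. Tac1, the member with the E-box shown, was at 0.04 ± 0.10 (exact permutation p 0.735). As the deletion was targeted to astrocytes and the members mark neurons, that value does not test the E-box. Adcyap1 was at 0.11 with a 95% interval of -0.167 to 0.392, which leaves room for a change in either direction. On SD its difference was 0.30 (95% interval -0.091 to 0.700); on HFD it was -0.08. On leaving out 1 array the SD value ranged from 0.16, without control SD replicate 2, to 0.48, without control SD replicate 3, and the HFD value from -0.22 to 0.05. On SD and on HFD taken alone no member passed either, where 0.263% and 0.287% of all genes did. Exact permutation tests were run on the difference averaged over diets, and their p-values for the 9 genes lay between 0.14 and 0.735. On neither diet did the arrays of any member separate by genotype, in either direction, as those of 9.94% of all genes did on SD and 19.9% on HFD. The nearest was Nptx2 on HFD, at 0.31 (95% interval -0.006 to 0.623; adjusted p 0.454, limma), where one cKO array at 9.45 lay below one control array at 9.51.

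Within the groups, the members did not vary as one. After group means were taken off, Nr5a1 varied with Cbln1 (Pearson r 0.818 over the 12 arrays), and Tac1 with both (0.761 and 0.741). Fezf1 varied with Nptx2 (0.815) and Nkx2-1 (0.635). Between these sets the values were negative, from -0.088 for Cbln1 with Nptx2 to -0.746 for Cbln1 with Nkx2-1, with Nr5a1 and Nkx2-1 at -0.638. On HFD, control replicate 2 had the highest of both Fezf1 and Nr5a1 in its group, and cKO replicate 3 the lowest of both. Control SD replicate 1 had the highest Fezf1 and the lowest Nr5a1, Cbln1 and Tac1 of its group, and control SD replicate 3 had the highest of those 3 genes. Over all 36 pairs the median r was 0.267 within groups and 0.412 with group means left in. These correlations are descriptions over arrays that share a dissection and a normalization. The within-group values were not recomputed with arrays left out. With group means left in, r of Nr5a1 with Tac1 fell from 0.589 to 0.232 without the 2 arrays farthest from the median of Nr5a1. That with Nkx2-1 went from 0.047 to 0.311, so the 2 sets may rest on few arrays.

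**Figure D3:**
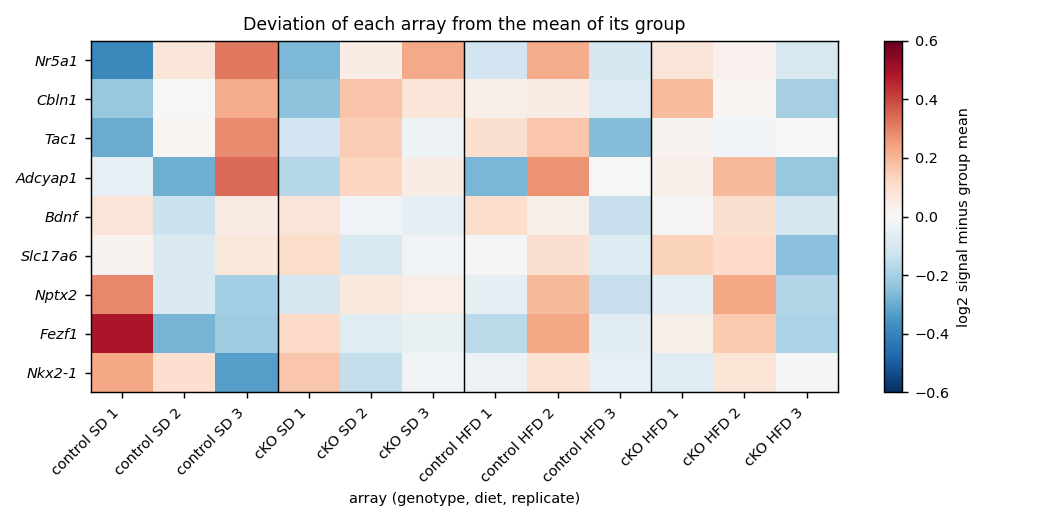
Deviation of each array from its group mean (colour, log2 signal, red above and blue below) for the 9 genes (rows) on the 12 VMH arrays (columns). Nr5a1, Cbln1 and Tac1 deviate together, and Fezf1 and Nkx2-1 deviate against them most clearly on control SD replicates 1 and 3.

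The genes whose pattern over the 12 arrays was most like that of Adcyap1, by Pearson r with group means left in, were Exoc6 (0.931), D330050G23Rik (0.917), Slit2 (0.902), Gpr149 (0.900) and Ssx2ip (0.893). Within groups these values were 0.717, 0.756, 0.802, 0.736 and 0.568. Among the other members, Slc17a6 stood at rank 54 of 16737 genes by likeness to Adcyap1, Nr5a1 at 356, Cbln1 at 465, Fezf1 at 520 and Bdnf at 9928. For Nr5a1 the closest were Slit1 (0.967), Megf11 (0.955), Doc2b (0.950), Glra1 (0.950) and Slit3 (0.943). Its within-group values were similarly high, at 0.960, 0.928, 0.922, 0.924 and 0.940. Cbln1 stood at rank 354 and Adcyap1 at 425 by likeness to Nr5a1, and Fezf1 at 6411. That order rests on 2 arrays: without the 2 farthest from the median of Nr5a1, r fell from 0.714 to 0.237 for Cbln1 and went from 0.225 to 0.548 for Fezf1, while Adcyap1 went from 0.696 to 0.609.

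Receptors, partners and relatives of the members were taken as a list of 29 genes, of which 20 were tested. On HFD, 6 were higher and 14 lower in controls and 11 higher and 9 lower in cKO mice. Averaged over genotypes, 9 were higher and 11 lower, with a median of -0.02, and none passed the threshold. At an unadjusted p under 0.05 (limma) 3 were lower. Of all 16738 genes, 2115 were at such a p by diet, 1645 of them higher. Adcyap1r1, the PACAP receptor PAC1, was at -0.12 ± 0.06 (SE; adjusted p 0.452, limma), and Ntrk2, the receptor of BDNF, at -0.04. The smallest p belonged to Tac2, which encodes neurokinin B and belongs to the same peptide family as Tac1, at -0.69 ± 0.19 (adjusted p 0.230). Its difference was -1.05 ± 0.27 in controls and -0.33 ± 0.27 in cKO mice, with an interaction of 0.72 ± 0.38 (unadjusted p 0.0865, adjusted p 0.880, limma). The next were Nrxn3, a neurexin, at -0.48 ± 0.17 (adjusted p 0.291) and Slc32a1, the vesicular transporter of GABA, at -0.58 ± 0.23 (adjusted p 0.344). By genotype, 10 of the 20 were higher and 10 lower, with none past the threshold.

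A further 29 genes of VMH neurons, 26 of them tested, gave 19 higher and 7 lower values on HFD, with a median of 0.06. None passed the threshold, and 5 higher and 2 lower ones were at an unadjusted p under 0.05 (limma). Of all 16738 genes, 2115 were at such a p by diet, 1645 of them higher. The smallest p-values were those of Gpr149, an orphan receptor, at 0.52 ± 0.12 (SE; adjusted p 0.177, limma), Rreb1 at 0.34 ± 0.09 (adjusted p 0.222) and Rbfox1 at 0.27 ± 0.07 (adjusted p 0.224). By genotype, 17 were higher and 9 lower, and 1 passed. Igsf1, a membrane glycoprotein of the immunoglobulin superfamily, read 9.93, 9.86 and 10.17 in control SD, 10.43, 10.71 and 10.71 in cKO SD, 9.67, 9.87 and 10.03 in control HFD, and 10.43, 10.85 and 10.47 in cKO HFD. All 6 arrays labelled cKO lay above all 6 control arrays, though the share of all genes that did so was not counted. Igsf1 was higher on the arrays labelled cKO by 0.68 ± 0.10 (adjusted p 0.00842, limma). Its adjusted p ranged from 0.00413 to 0.0467 over the alternatives.

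No gene of the marker lists of neighbouring cells passed the threshold by diet. All 6 GABA neuron genes with a row were lower on HFD, with a median of -0.39, and 3 were at an unadjusted p under 0.05 (limma). Of all 16738 genes, 2115 were at such a p by diet, 1645 of them higher. Gad2 was at -0.68 ± 0.25 (SE; adjusted p 0.320, limma), Gad1 at -0.59 ± 0.21 (adjusted p 0.308) and Slc32a1 at -0.58 ± 0.23 (adjusted p 0.344). The mean of the list over arrays was 8.51 to 8.98 in control SD, 8.47 to 8.89 in cKO SD, 7.77 to 8.52 in control HFD and 7.91 to 8.62 in cKO HFD. The ranges of the diets thus overlapped in both genotypes. In each HFD group replicate 2 had the lowest GABA mean and the highest Adcyap1, and control SD replicate 2 had the highest GABA mean and the lowest Adcyap1. In the remaining group the order was the other way: cKO SD replicate 2 had both the highest GABA mean and the highest Adcyap1 of its group. With that mean as a covariate, the diet difference of Adcyap1 was 0.46, that of Fezf1 0.27, of Nptx2 0.23 and of Slc17a6 0.18. With both HFD arrays numbered 2 left out, Adcyap1 was at 0.55 (adjusted p 0.486, limma), Fezf1 at 0.38, Nptx2 at 0.26 and Slc17a6 at 0.25. The part of GABA neuron RNA in the members' differences was not tested beyond this.

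Among 11 tested genes of other hypothalamic nuclei, 9 were lower on HFD, with a median of -0.29; Trh was at -1.58 ± 0.72 and Hcrt, the orexin gene of the lateral hypothalamus, at -1.17 ± 0.52 (adjusted p 0.393 and 0.389, limma). List means lay at 8.93 to 9.57 in control SD, 9.19 to 9.60 in cKO SD, 8.53 to 9.29 in control HFD and 8.66 to 9.42 in cKO HFD. With a covariate made from such neuropeptide genes, the difference of Adcyap1 was 0.58. Of 20 genes found in all neurons, 18 were higher on HFD, with a median of 0.10 and none past the threshold. In controls 11 were higher and 9 lower, with a median of 0.05, and in cKO mice 19 were higher and 1 lower, with a median of 0.13; that difference between genotypes was not tested for the list. One of them, Stmn2, a protein of growing neurites, was higher on the arrays labelled cKO by 0.80 ± 0.05 averaged over diets (adjusted p 1.93e-05, limma). By genotype the list as a whole gave 12 higher and 8 lower genes, with a median of 0.02. Whether the Stmn2 difference came from a response of neurons was not tested. Of 15 oligodendrocyte genes 14 were lower on HFD, with a median of -0.27, and with their mean as a covariate Adcyap1 was at 0.74 by diet (adjusted p 0.0876, limma). Oligodendrocyte genes were also lower on the arrays labelled cKO, in 13 of 15 with a median of -0.54 and none past the threshold. Their part in the members' values was not tested further. On HFD, arcuate neuropeptide genes were higher in 5 of 6, with a median of 0.05, microglial genes in 3 of 7 and tanycyte genes in 0 of 4. Among the 6 arcuate genes, Pomc was also in the choroid plexus and pituitary list, and its cKO HFD arrays spread from 7.32 to 10.39. By genotype, tanycyte genes were higher on the arrays labelled cKO in 4 of 4, with a median of 0.22 and none past the threshold. Of the choroid plexus and pituitary genes, Prl and Gh passed the filter through cKO HFD replicate 2 alone, so no count is given for that list. Without that array the diet difference of Adcyap1 was 0.62. The astrocyte list gave 4 higher and 10 lower genes by diet, with a median of -0.03. By genotype it gave 10 higher and 4 lower, among them Aqp4, the water channel of astrocyte end feet, at 0.48 ± 0.09 (adjusted p 0.0493, limma). That call was lost under 15 of the 25 alternatives, with adjusted p-values up to 0.258 at a difference of 0.40 without both HFD arrays numbered 2. On leaving out 1 array it was kept only without control SD replicate 1 or control SD replicate 3 and lost without any of the other 10.

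**Figure D4:**
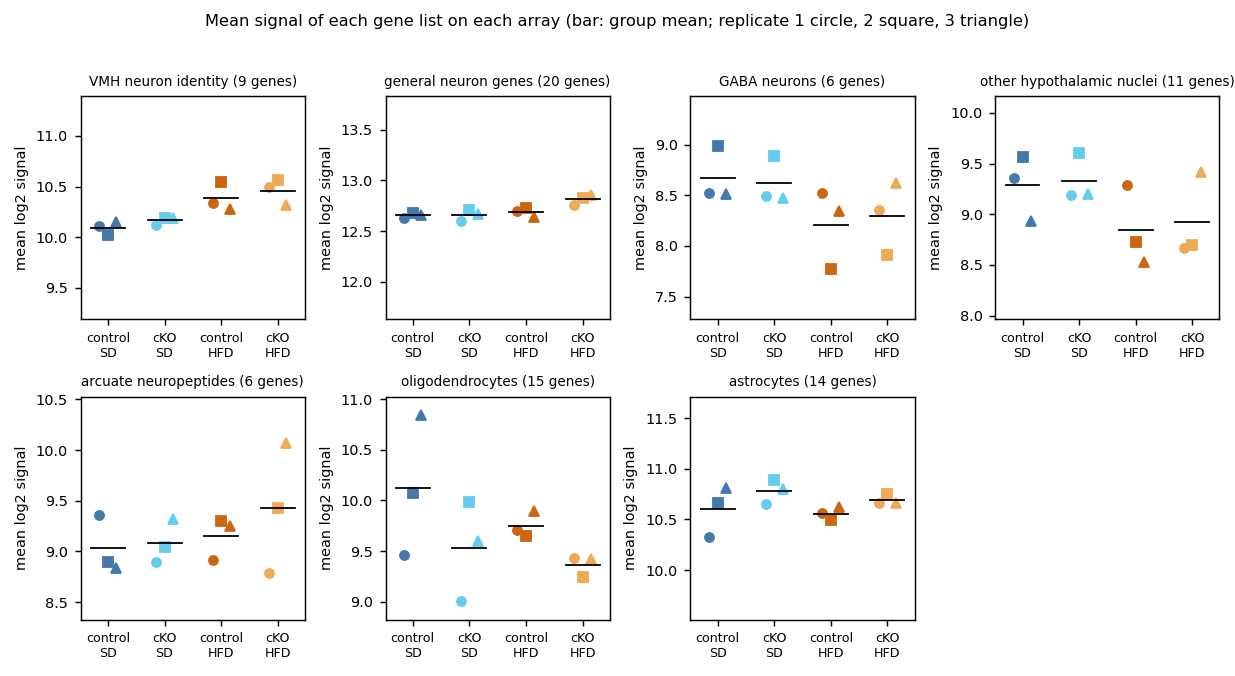
Mean log2 signal (vertical axis, with the same span in every panel) of the 9 VMH neuron genes and of 6 marker lists on each VMH array, by genotype and diet; symbols mark replicates 1 to 3 and bars are group means. The 9 genes average 10.02 to 10.19 on SD and 10.28 to 10.56 on HFD, while the GABA neuron list is lowest on replicate 2 of both HFD groups.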

How the data were processed

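Total RNA of VMH and BAT was measured on 24 arrays, 3 per group. Values are the authors' deposited log2 signals; per the submitters' processing notes the tools were PLIER 2.0 and Affymetrix Expression Console 1.1.1, whose roles are unstated. How arrays were normalized and which genome build was used is not given in the sources used here. Precision is limited by the number of arrays. Of 65956 rows that were no controls, 30604 had 1 gene symbol, 2146 several and 33206 none; 827 symbols were updated through RefSeq GRCm38.p6. The brightest row stood for a gene, and a gene was tested when its mean over the 12 VMH arrays reached the median of all rows that were no controls (5.3885). Group means of the 12 arrays were fitted with limma 3.58.1 (R 4.3.3), with two-sided moderated tests adjusted by Benjamini-Hochberg over 16738 genes in each of 7 comparisons. The procedure was run on simulated data with planted differences larger than that of any member. That run thus does not say whether differences of the members' size would pass. Exact permutation tests were two-sided. No p was adjusted over the members alone.

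The members and the gene lists were chosen with earlier results of these data known. Named genes were all members, genes of a list past the threshold, otherwise up to 3 by smallest p, and the 5 genes most like Adcyap1 and Nr5a1; Adcyap1r1 and Ntrk2 were named as receptors of members after their values were seen. Alternatives were quantile normalization, a pseudocount of 16, no filter, row means, array weights, a trended prior, a fit of only the groups compared, the replicate number as a block, a neuropeptide covariate and the omission of each array in turn. Chosen after seeing the data were the GABA neuron and oligodendrocyte covariates, a filter at the median of all rows, and leaving out both HFD arrays numbered 2.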

Additional observations from a re-analysis of the deposited data

How the results depend on the processing

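No member passed the threshold in any of the 7 comparisons under any of the 25 alternatives run, and the lowest adjusted p of a member was 0.0524 (limma). Of 1575 recomputed member differences 74 changed sign, in no case where the difference exceeded its SE. Members higher on HFD at an unadjusted p under 0.05 numbered 6, 2 with the GABA neuron covariate and 5 to 7 on leaving out 1 array. Members with all HFD arrays above all SD arrays numbered 1, and 1 to 2 on leaving out 1 array: Fezf1 joined without control SD replicate 1, Nr5a1 without control SD replicate 3, and Slc17a6 without cKO SD replicate 1 or cKO HFD replicate 3. Counts over all genes moved more. The 44 genes that passed by genotype on SD were 10 with only the groups compared, 85 with the oligodendrocyte covariate and 22 to 44 on leaving out 1 array. The 48 on HFD were 117 with array weights, 124 with the oligodendrocyte covariate, 18 without both HFD arrays numbered 2 and 31 to 53 on leaving out 1 array. The 103 averaged over diets were 203, 368, 63 and 76 to 129 under the same alternatives. By diet, the 1 gene in cKO mice became 0 with only the groups compared, 22 with array weights and 1 to 3 on leaving out 1 array. The 2 averaged over genotypes became 5 with the pseudocount of 16, 17 with array weights, 0 with the replicate block, with the neuropeptide, GABA neuron or oligodendrocyte covariate and without both HFD arrays numbered 2, and 0 to 5 on leaving out 1 array. The cause of these moves was not tested. Arrays with the same replicate number did not deviate together (mean r -0.0127 over 18 pairs), so the replicate block pairs arrays by number only; with it, genes by genotype on SD numbered 30 and the adjusted p of Adcyap1 by diet was 0.186 (limma).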
